A study of Mus musculus with 5 samples.

Results

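Axon guidance ligands and receptors form 4 systems that steer growing axons and also migrating cells, vessels and tissue boundaries. They were taken here as the genes whose symbol in the deposited expression table belongs to the ephrins and Eph receptors, the semaphorins with plexins and neuropilins, the Slits and Robo receptors, or the netrins and Unc5 receptors. The table held 64 such genes among 22653 single gene symbols: 22 in the ephrin group, 30 in the semaphorin group, 5 in the Slit group and 7 in the netrin group. The choice rested on names and used no measured value, but it was made with earlier results of these data known.

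RNA was sequenced from forelimbs of 2 Prmt5cKO and 3 control mouse embryos of mixed C57BL/6 and Swiss Webster strain, aged E11.5 and counting 47 to 48 somites. The Prmt5cKO embryos are labelled Prx1Cre+/-;Prmt5c/c, so both conditional copies of Prmt5, an arginine methyltransferase gene, met a Cre driven by the Prx1 enhancer, which acts in limb bud mesenchyme and not in every cell of the limb. The controls are labelled only as control, and the sources used here do not give their alleles. The values are 1 FPKM per gene and genotype (fragments scaled to transcript length and library total), computed by the authors, so no SD can be given and sample depths are unknown.

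Ephrins are ligands held on the cell surface, and Eph receptors are the tyrosine kinases that bind them on the neighbouring cell. Semaphorins are secreted (class 3) or membrane-held (classes 4 to 7) and signal through plexins, with neuropilins as co-receptors for most of class 3. Slits are secreted and act on Robo receptors, and netrins act on Unc5 receptors and on Dcc and Neo1. In the limb bud these systems are known for guiding motor and sensory axons and muscle precursors, for vessel growth, and for boundaries within the mesenchyme itself.

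The labels were checked against transcripts. Prmt5 stood at 12.5 FPKM in Prmt5cKO and 40.9 in control forelimbs, and Tbx5, the forelimb T-box gene, at 19.9 and 23.0 FPKM. The hindlimb gene Tbx4 was lower than Tbx5 but not absent, at 2.95 FPKM in Prmt5cKO and 3.81 in control, and Pitx1 stood at 0.268 and 0.143. Xist, which coats the inactive X, stood at 0.392 FPKM in Prmt5cKO and 87.3 in control, and the Y-linked Ddx3y at 21.8 and 0.0840 FPKM, so embryo sex and genotype cannot be told apart behind any difference below. In whole forelimbs, fewer cells of a type and less RNA per cell cannot be told apart either.

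A gene was called higher or lower where its mean over the genotypes reached 1 FPKM and the authors' q, an adjusted p-value, was under 0.05. Of the 64 genes 50 reached that level and 42 of those were tested by the authors. In Prmt5cKO forelimbs 6 of the 42 were higher (Epha2, Sema4a, Sema5b, Plxna1, Slit3 and Unc5b) and 12 were lower (Efna5, Efnb3, Epha4, Ephb3, Ephb4, Ephb6, Sema3c, Sema3d, Sema4g, Sema6a, Plxna3 and Plxna4), by the authors' deposited table. That is 14.3% higher and 28.6% lower, against 4.83% higher and 19.3% lower among all 10617 tested genes at this level; whether these shares differ was not tested. All 18 calls were of less than 2-fold, and none of the 64 genes is in the authors' second table of 208 rows, which lists only genes at least 2-fold apart.

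The whole table leaned downwards, and the log2 fold changes of all tested genes in the authors' deposited table had a median of -0.13. Of the 50 genes 35 lay below a ratio of 1 and 26 lay below that median, so for 9 genes the direction turned when set against all genes. With folds centred on the median and a size of at least 0.32 on the log2 scale also required, 6 were higher (4.52% of all tested genes) and 4 were lower (10.8% of all tested genes). The 4 were Efnb3, Sema3d, Sema4g and Plxna3.

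**Figure D1:**
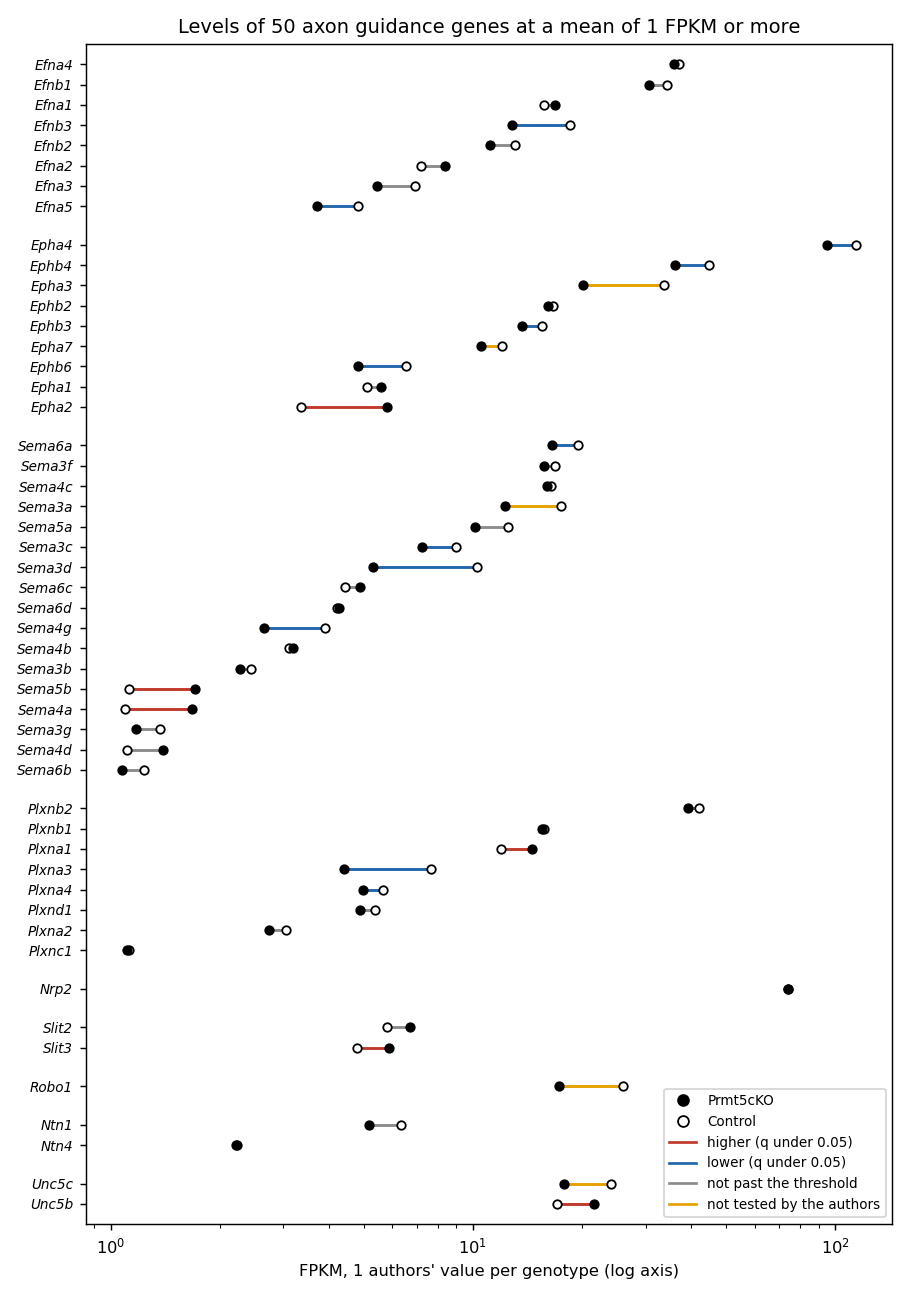
Levels of the 50 guidance genes that reached a mean of 1 FPKM, on a log axis, with filled points for Prmt5cKO and open points for control, 1 authors' value each and no error bar. Families run from ephrins at the top to Unc5 receptors at the bottom; Epha4 is the most abundant, at 95.0 FPKM in Prmt5cKO and 114 in control, and Sema3d has the longest line among the semaphorins.

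By the folds as deposited the largest called differences were those of Sema3d, Plxna3 and Epha2, and their promoters are shown for that reason. Relative to the median of all genes Epha2 moved most (0.92 on the log2 scale), then Sema3d (-0.82), Sema4a (0.75), Sema5b (0.73) and Plxna3 (-0.67). Each window runs from 250 bases before to 50 bases after the RefSeq start in GRCm38.p6, 5′ to 3′ on the gene's strand, with GC boxes (GGGCGG on either strand) and E-boxes (CANNTG) in capitals; no letters of these motifs overlap. The Sema3d window lies at chr5:12382916-12383215 (plus strand), that of Plxna3 at chrX:74328816-74329115 (plus strand) and that of Epha2 at chr4:141300971-141301270 (plus strand).
Sema3d: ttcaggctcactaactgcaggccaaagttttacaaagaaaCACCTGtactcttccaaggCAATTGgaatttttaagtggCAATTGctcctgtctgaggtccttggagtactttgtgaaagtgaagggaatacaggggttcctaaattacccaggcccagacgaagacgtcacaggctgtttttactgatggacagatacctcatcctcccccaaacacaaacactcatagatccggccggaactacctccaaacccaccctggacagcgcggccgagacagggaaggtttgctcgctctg
Plxna3: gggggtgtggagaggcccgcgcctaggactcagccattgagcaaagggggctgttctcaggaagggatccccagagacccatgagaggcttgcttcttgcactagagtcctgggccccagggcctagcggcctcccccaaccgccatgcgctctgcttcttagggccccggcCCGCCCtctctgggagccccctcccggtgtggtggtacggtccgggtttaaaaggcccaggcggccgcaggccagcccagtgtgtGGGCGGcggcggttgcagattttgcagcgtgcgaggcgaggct
Epha2: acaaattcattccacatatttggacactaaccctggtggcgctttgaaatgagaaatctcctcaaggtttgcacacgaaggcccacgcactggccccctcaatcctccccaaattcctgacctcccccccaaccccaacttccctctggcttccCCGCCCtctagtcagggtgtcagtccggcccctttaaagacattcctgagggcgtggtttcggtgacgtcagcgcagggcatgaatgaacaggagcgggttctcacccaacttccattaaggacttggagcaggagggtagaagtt
The Sema3d window held 3 E-boxes and no GC box, that of Plxna3 2 GC boxes and that of Epha2 1 GC box, neither of these with an E-box. Windows of the guidance genes, 69 for 55 matched symbols, held a GC box in 73.9% and an E-box in 49.3%, against 35.7% and 72.3% of all 32851 windows. Their median GC content was 64.3%, against 52.7% over all windows. All windows cover 27025 symbols whatever their level in these forelimbs, and a gene with several starts counts more than once. A comparison with expressed genes only was not run, and whether the motif shares go with GC content was not tested. A match is a run of letters and no evidence of binding.

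In the ephrin group 6 genes were lower in Prmt5cKO forelimbs, 1 was higher, 8 did not pass the threshold and 2 were untested among the 17 at the minimum level. The 6 are 40.0% of those tested, against 19.3% of all tested genes, and with centred folds and the size limit above only Efnb3 remained lower and Epha2 higher. Its median log2 ratio, with 1 FPKM added to both values, lay at -0.06 relative to all genes. Among the ligands, Efnb3, a transmembrane ephrin-B, fell to 12.9 FPKM in Prmt5cKO, against 18.5 in control (in the authors' deposited table, log2 fold change -0.53 at q = 2.4e-04). Efna5, an ephrin tethered to the membrane by a lipid anchor, fell to 3.71 FPKM in Prmt5cKO, against 4.82 in control (in the authors' deposited table, log2 fold change -0.38 at q = 0.00464). The most abundant ligand was Efna4, at 35.8 FPKM in Prmt5cKO and 37.1 in control. Efnb1, an X-linked ephrin-B known for boundaries in the developing skull, followed with 30.6 and 34.3 FPKM, and neither passed the threshold (q = 0.820 and 0.135 in the authors' deposited table).

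The remaining ligands, Efna1, Efna2, Efna3 and Efnb2, also did not pass. Efna1 stood at 16.8 FPKM in Prmt5cKO and 15.7 in control, Efna2 at 8.36 and 7.18, Efna3 at 5.45 and 6.92, and Efnb2, an arterial marker, at 11.2 and 13.1. All 3 ephrin-B ligands lay below the median of all genes and 2 of the 5 ephrin-A ligands did. Summed ephrin-B transcripts came to 54.6 FPKM in Prmt5cKO and 65.9 in control, and ephrin-A transcripts to 70.2 and 71.8 FPKM. Efna1, Efna3 and Efna4 lie side by side on chromosome 3, between 89271733 and 89338028 in GRCm38 (GENCODE M21), and the authors' deposited table gives them log2 fold changes of 0.10, -0.34 and -0.05.

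Among the Eph receptors Epha4, known for steering motor axons at the base of the limb and a strong transcript of its mesenchyme, made up 45.4% of the summed receptor FPKM in Prmt5cKO and 45.0% in control. It fell to 95.0 FPKM in Prmt5cKO, against 114 in control (in the authors' deposited table, log2 fold change -0.26 at q = 0.00218). That is 83.3% of the control level, and 0.13 below the median fold of all genes on the log2 scale. The gene spans chromosome 1 from 77367185 to 77515088 on the minus strand. Epha2, a receptor of epithelia reported in human cells as a p53 target, went the other way, with 5.78 FPKM in Prmt5cKO and 3.35 in control (in the authors' deposited table, log2 fold change 0.79 at q = 9.53e-04). It was the largest rise among the 64 genes and the single rise in the ephrin group.

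EphB receptors were lower in 3 of the 4 cases at the minimum level, against 19.3% of all tested genes, and none of the 3 was called with centred folds and the size limit. Ephb4, a receptor of veins, fell to 36.2 FPKM in Prmt5cKO, against 45.0 in control (in the authors' deposited table, log2 fold change -0.31 at q = 0.0134). Of 17 tested endothelial markers 3 (17.6%) were lower and none higher, near the 19.3% lower over all genes, and the 20 measured summed to 161 FPKM in Prmt5cKO and 172 in control; their part in the Ephb4 value was not tested. Ephb6, a receptor without kinase activity, fell to 4.82 FPKM in Prmt5cKO, against 6.55 in control (in the authors' deposited table, log2 fold change -0.44 at q = 0.00752). Ephb3 fell to 13.7 FPKM, against 15.6 in control, a log2 change of -0.19 by the authors' deposited table, close to the median of all genes. Ephb2 did not pass, at 16.1 FPKM in Prmt5cKO and 16.6 in control, nor did Epha1, at 5.58 and 5.09 FPKM.

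Epha3 and Epha7 carry a fold of 0 and a q of 1 in the authors' deposited table although their FPKM values differ, which was read as not tested. Epha3 stood at 20.1 FPKM in Prmt5cKO and 33.7 in control, 59.5% of the control level, a lower percentage than that of any tested Eph receptor at the minimum level. Epha7 stood at 87.7% of the control level. Whether either difference exceeds the spread between embryos cannot be said from these values.

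**Figure D2:**
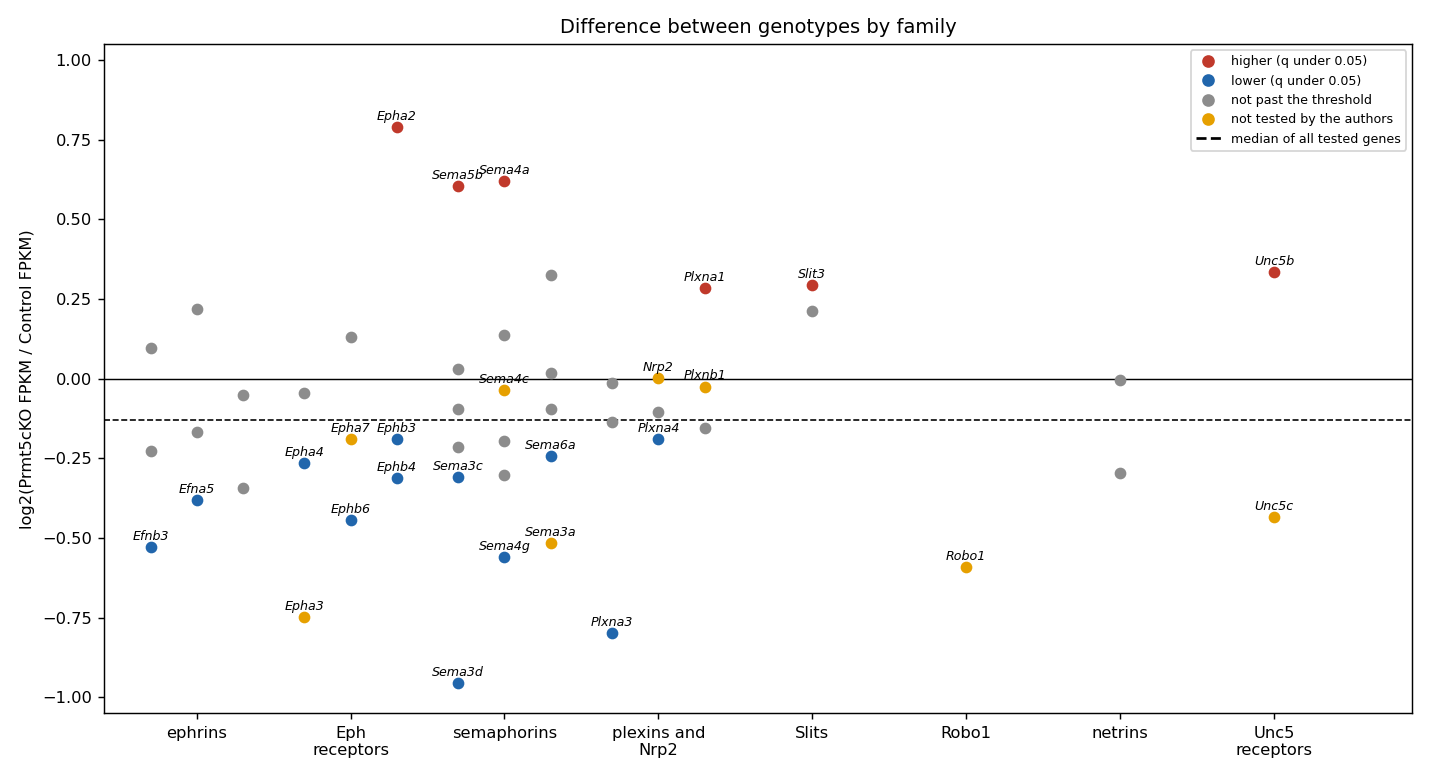
Log2 ratio of Prmt5cKO over control FPKM for the 50 guidance genes at a mean of 1 FPKM or more, by family, with red for higher, blue for lower, grey for not past the threshold and orange for genes the authors did not test; horizontal offsets only separate points. The dashed line is the median of all tested genes, -0.13. The blue points of the Eph receptors lie between -0.44 and -0.19, and Sema3d and Plxna3 lie lowest in their families.

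The semaphorin group held the largest called fall, that of Sema3d. Of its 26 genes at the minimum level 3 were higher, 6 lower, 13 did not pass and 4 lacked a test. That is 13.6% higher and 27.3% lower of the 22 tested, against 4.83% and 19.3% of all tested genes. Its median log2 ratio was 0.02 relative to all genes. Sema3d, a secreted semaphorin, fell to 5.29 FPKM in Prmt5cKO, against 10.2 in control (in the authors' deposited table, log2 fold change -0.95 at q = 3.25e-10), 51.6% of the control level. The gene spans chromosome 5 from 12383385 to 12588948 on the plus strand, in a stretch that also holds Sema3a, Sema3e and Sema3c. Sema3c fell less, to 7.24 FPKM in Prmt5cKO, against 8.96 in control (in the authors' deposited table, log2 fold change -0.31 at q = 0.0199).

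Sema3a, which repels sensory and motor axons in the limb, had no test and stood at 12.2 FPKM in Prmt5cKO and 17.5 in control, 70.0% of the control level. Sema3e, the remaining gene of that stretch, was under the minimum, at 0.581 and 0.623 FPKM. Of the class 3 genes on other chromosomes none passed: Sema3f stood at 15.7 FPKM in Prmt5cKO and 16.8 in control, Sema3b at 2.28 and 2.44, and Sema3g at 1.18 and 1.37. Class 3 transcripts summed to 44.6 FPKM in Prmt5cKO and 57.9 in control, 76.9% of the control sum, and those of classes 4 to 7 to 64.5 and 69.9 FPKM, 92.2%. Over all single genes the summed FPKM in Prmt5cKO was 93.5% of that in control.

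The membrane semaphorins went both ways. Sema4g fell to 2.65 FPKM in Prmt5cKO, against 3.90 in control (in the authors' deposited table, log2 fold change -0.56 at q = 0.00412). Sema6a, a transmembrane ligand of A plexins on chromosome 18, fell to 16.5 FPKM in Prmt5cKO, against 19.5 in control (in the authors' deposited table, log2 fold change -0.24 at q = 0.00299). Sema5b, a transmembrane semaphorin with thrombospondin repeats, rose to 1.71 FPKM in Prmt5cKO, against 1.12 in control (in the authors' deposited table, log2 fold change 0.60 at q = 0.0074). Sema4a rose to 1.68 FPKM in Prmt5cKO, against 1.09 in control (in the authors' deposited table, log2 fold change 0.62 at q = 0.0391). Both rises are of scarce transcripts near the minimum level.

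Sema4a and Sema4d are semaphorins also known from immune cells. Sema4d stood at 1.39 FPKM in Prmt5cKO and 1.11 in control and did not pass. Of 14 tested macrophage markers 11 (78.6%, against 4.83% of all genes) were higher and none lower, by the authors' deposited table, and the 15 measured summed to 81.5 FPKM in Prmt5cKO and 43.3 in control, with none at 0; their part in the Sema4a value was not tested. Sema4c, at 16.1 and 16.5 FPKM, was not tested by the authors. Sema5a did not pass, at 10.1 FPKM in Prmt5cKO and 12.5 in control (q = 0.0711 in the authors' deposited table), and neither did Sema4b, Sema6b, Sema6c and Sema6d, with log2 fold changes between -0.20 and 0.14 in the authors' deposited table.

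Among the receptors of semaphorins Plxna3, on the X chromosome, fell to 4.41 FPKM in Prmt5cKO, against 7.67 in control (in the authors' deposited table, log2 fold change -0.80 with q listed as 0). It encodes a plexin that signals with neuropilin 2 for class 3 semaphorins. Of 342 tested X-linked genes 25.4% were lower, and of 9785 autosomal ones 19.3%; the part of embryo sex in the fall of Plxna3 was not tested. The gene spans X from 74329066 to 74344689 on the plus strand. Efnb1 and Plxnb3 are the other X-linked members, and Plxnb3 stood at 0.0330 FPKM in Prmt5cKO and 0.0531 in control. Plxna4 fell to 4.98 FPKM in Prmt5cKO, against 5.67 in control (in the authors' deposited table, log2 fold change -0.19 at q = 0.0235), close to the median of all genes.

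Plxna1 rose to 14.5 FPKM in Prmt5cKO, against 11.9 in control (in the authors' deposited table, log2 fold change 0.28 at q = 0.0161), so the A plexins were divided: 1 rose, 2 fell, and Plxna2, at 2.74 and 3.05 FPKM, did not pass. The summed A plexin level was 26.7 FPKM in Prmt5cKO and 28.3 in control. Plxnb2, the most abundant plexin at 39.1 FPKM in Prmt5cKO and 42.1 in control, did not pass, and neither did Plxnd1, a receptor of vessels, or Plxnc1. Nrp2 stood at 74.3 FPKM in Prmt5cKO and 74.2 in control and Plxnb1 at 15.5 and 15.8, and neither was tested by the authors. Nrp1 shares a row with the microRNA gene Mir1903 and so is no member; that row stood at 25.9 FPKM in Prmt5cKO and 23.4 in control (q = 0.271 in the authors' deposited table).

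**Figure D3:**
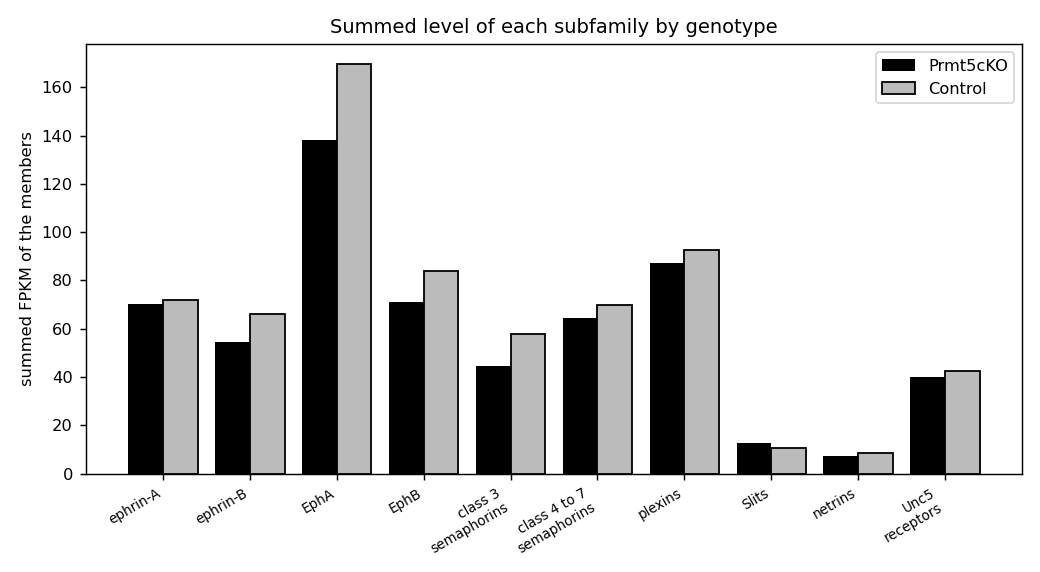
Summed FPKM of all members of each subfamily, with Prmt5cKO in black and control in grey. Bars start at 0 and carry no error, and neuropilin and Robo genes are left out because of their shared rows. The netrin bars lack Ntn3, whose row shared with Tbc1d24 stood at 8.24 FPKM in Prmt5cKO and 12.3 in control. EphA transcripts, most of them Epha4, sum highest, at 138 FPKM in Prmt5cKO and 169 in control, and only the Slit bars are taller in Prmt5cKO (12.8 and 10.8 FPKM).

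In the Slit group 1 of 2 tested genes rose in Prmt5cKO forelimbs, against 4.83% of all tested genes, and Robo1 had no test. Slit3 rose to 5.86 FPKM in Prmt5cKO, against 4.79 in control (in the authors' deposited table, log2 fold change 0.29 at q = 0.0271). Slit2 stood at 6.71 and 5.80 FPKM and did not pass (in the authors' deposited table, log2 fold change 0.21 at q = 0.0977). Slit1, the ligand best known from the nervous system, was under the minimum, at 0.205 FPKM in Prmt5cKO and 0.211 in control. Slit3 spans chromosome 11 from 35121224 to 35708507 on the plus strand. Relative to all genes the folds of Slit3 and Slit2 lay at 0.42 and 0.34 on the log2 scale.

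Robo1 stood at 17.3 FPKM in Prmt5cKO and 26.0 in control, 66.4% of the control level, and was not tested by the authors. Robo2 shares a row with the microRNA gene Mir691 and so is no member; that row fell to 29.1 FPKM in Prmt5cKO, against 47.7 in control (in the authors' deposited table, log2 fold change -0.71 with q listed as 0). Robo3 was listed at 0 in Prmt5cKO and at 0.0131 FPKM in control. The median log2 ratio of the group, 0.30 relative to all genes, therefore rests on 3 genes, 2 ligands above the median of all genes and 1 receptor below it, and was 0.05 without a minimum level.

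In the netrin group 1 of 3 tested genes rose and none fell, against 4.83% higher and 19.3% lower over all tested genes. Unc5b, a receptor of vessels and other tissues that has been reported in human cells as a p53 target, rose to 21.5 FPKM in Prmt5cKO, against 17.1 in control (in the authors' deposited table, log2 fold change 0.33 at q = 0.0357). It made up 54.0% of the summed Unc5 level in Prmt5cKO and 40.4% in control. Unc5c, which was not tested, stood at 17.8 FPKM in Prmt5cKO and 24.1 in control, and made up 44.6% and 56.9%. By these values Unc5b was the more abundant in Prmt5cKO and Unc5c in control, while the family sum was 39.9 FPKM in Prmt5cKO and 42.3 in control. Unc5b spans chromosome 10 from 60762593 to 60831581 on the minus strand.

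Ntn1, the best known secreted netrin, stood at 5.16 FPKM in Prmt5cKO and 6.34 in control, and Ntn4 at 2.23 in both, and neither passed. Ntn3 shares a row with Tbc1d24 and so is no member; that row fell to 8.24 FPKM in Prmt5cKO, against 12.3 in control (in the authors' deposited table, log2 fold change -0.58 at q = 3.93e-08). Of the netrin receptors outside the Unc5 family, Dcc was under the minimum at 0.588 FPKM in Prmt5cKO and 0.826 in control, and Neo1, which was not tested, stood at 27.4 and 34.1 FPKM. Unc5d was also under the minimum, at 0.461 FPKM in Prmt5cKO and 1.07 in control, a difference of over 2-fold (in the authors' deposited table, log2 fold change -1.21 at q = 1.6e-04), and is not counted among the calls. The 14 genes under the minimum were Epha5, Epha6, Epha8, Epha10, Ephb1, Sema3e, Sema4f, Sema7a, Plxnb3, Slit1, Robo3, Ntn5, Unc5a and Unc5d, with means of 0.00654 to 0.889 FPKM and a q of 1 for 10 of them in the authors' deposited table. On the level threshold Epha5 lay just outside, with a mean of 0.889 FPKM, and Plxnc1 just inside, with 1.12.

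Of 5 guidance genes reported in human cells as p53 targets, Epha2 and Unc5b rose (4.83% of all tested genes were higher), and Sema3b, Sema3f and Ntn1 did not pass. The reports come from general knowledge and the list was drawn up with results on p53 targets in these forelimbs known. A p53 half-site, searched by its consensus on both strands, stood in 5.80% of the guidance gene promoter windows and 8.36% of all windows. Of the 3 windows printed above, that of Plxna3 held one and those of Sema3d and Epha2 did not. Presence or absence of this match in so short a window cannot decide whether p53 acts on a gene.

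Set beside each other, the ephrin group had 40.0% of its 15 tested genes lower and 6.67% higher, and the semaphorin group had 27.3% of its 22 lower and 13.6% higher. The Slit group had 2 tested genes, with 1 higher, and the netrin group had 3, with 1 higher. Against all genes (19.3% lower, 4.83% higher) these shares rest on few genes and the differences between groups were not tested. The Slit and netrin counts leave out untested Robo1 and Unc5c, at 66.4% and 74.0% of control. They also leave out the shared rows of Robo2 and Ntn3, at 61.1% and 67.0%. Of the genes under the minimum, Unc5d stood at 43.2% of control, Ntn5 at 94.6%, Slit1 at 97.1% and Unc5a at 109%, and Robo3 was listed at 0 in Prmt5cKO. With folds centred and the size limit above, 1 of 15 tested genes was lower and 1 higher in the ephrin group. In the semaphorin group 3 of 22 were lower and 3 higher. Over all tested genes 10.8% were lower and 4.52% higher at this setting, and counts this small give no order of the groups. By the fold without an added FPKM, 11 of the 17 ephrin group genes lay below the median fold of all genes, as did 12 of the 26 semaphorin group genes. By the calls without centring, receptors across all systems had 3 higher and 6 lower among 15 tested, and ligands 3 higher and 6 lower among 27 tested. Over all tested genes 4.83% were higher and 19.3% lower by these calls. At the minimum level 6 of 21 receptors and 2 of 29 ligands had no test.

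Untested genes were common here. Of the 50 genes at the minimum level 8 (16.0%) had no test, against 9.05% of all 11674 single genes at that level. Among the 8, Epha3, Robo1, Sema3a and Unc5c, had log2 ratios under -0.4, and these 4 are also the ones that span more than 300 kb. The other 4, Epha7, Sema4c, Plxnb1 and Nrp2, stood at 87.7% to 100.1% of the control level.

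Many guidance genes are long, and gene span was therefore set against the difference. The 50 genes had a median span of 45.1 kb, against 24.5 kb over 11145 single genes at the minimum level with GENCODE coordinates. Over all genes 16.0% of those under 10 kb were lower and 45.8% of those of 300 kb or more, while the share that was not tested was 4.61% and 15.0%. Median log2 ratios in these bins were 0.01 and -0.14 relative to all genes. The 9 guidance genes of 300 kb or more had a median of -0.16, close to that of all genes of this span, with 1 lower, 1 higher, 4 untested and 3 not past the threshold. Slit3, at 587 kb, was the one that rose. Across the 50 genes the log2 ratio and the log of the span had a Pearson r of -0.16 and a Spearman rho of -0.16, against -0.08 and -0.07 across all genes; genes are not independent replicates.

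**Figure D4:**
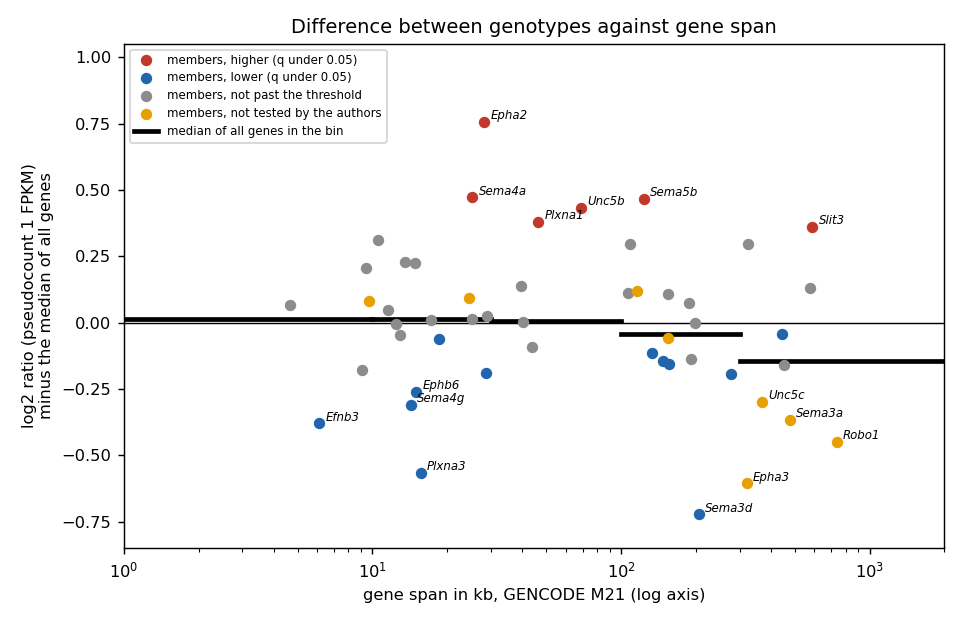
Log2 ratio (1 FPKM added to both values) minus the median of all genes, against gene span on a log axis, for the 50 guidance genes coloured by call. Black bars give the median of all genes in 5 span bins, 0.01 under 10 kb and -0.14 from 300 kb; untested Epha3, Robo1, Sema3a and Unc5c lie at the lower right, while Sema3d, Plxna3 and Efnb3 are low at shorter spans and Slit3 is high at a long one.

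Partners outside the 4 families were also examined. Of 24 measured co-receptors and further guidance cues 16 reached the minimum level and 10 were tested; none was higher and 3 were lower (19.3% of all tested genes were), Cxcl12, Vegfa and Rgmb. Cxcl12, a chemokine that draws muscle precursors and axons, fell to 9.37 FPKM in Prmt5cKO, against 16.3 in control (in the authors' deposited table, log2 fold change -0.80 at q = 9.43e-11). The median of this list lay at -0.11 relative to all genes. Of the 16, 6 were not tested. The Unc5 ligand Flrt2 stood at 52.2% of the control level, the hedgehog co-receptors Boc and Cdon at 65.8% each, the netrin receptor Neo1 at 80.2%, the vessel receptor Kdr at 89.2% and the Wnt receptor Ryk at 99.9%.

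Of 46 measured genes that carry guidance signals inside the cell 42 reached the minimum level and 34 were tested, with 1 higher, 5 lower and a median of -0.03 relative to all genes. Mical1, an oxidoreductase that acts on actin downstream of plexins, fell to 68.5% of its control level (in the authors' deposited table, log2 fold change -0.55 at q = 2.71e-05). Enah, Pak3, Sdcbp and Ablim3 were the other falls and Farp1, an exchange factor of plexin signalling, the rise. At 2.94% higher and 14.7% lower, this list lay near the shares of all genes.

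Markers of cells that guidance genes are known from were set beside these values. Over all tested genes 19.3% were lower and 4.83% higher. Of 8 tested nerve and Schwann cell markers 2 (25%) were lower, Erbb3 and Gfra3, and none was higher. Of the 8, 5 lay above the median of all genes and 3 below it, with a list median of 0.08 relative to all genes. The 19 measured summed to 42.8 FPKM in Prmt5cKO and 43.9 in control, and Sox10 stood at 0.626 and 0.468 FPKM. Of 15 tested muscle markers 4 (26.7%) were lower, and the 18 measured summed to 164 FPKM in Prmt5cKO and 200 in control, with none at 0. Of 17 tested surface ectoderm markers 5 (29.4%) were higher, Fgf8, Sp6, Sp8, Tfap2a and Epcam, and 1 lower, Krt15. The other 11, among them Krt5, Krt14, Cdh1 and Trp63, did not pass, and the list summed to 237 and 232 FPKM. Fgf8, Sp6 and Sp8 were not among the ectoderm markers first planned. Of the markers first planned, Tfap2a and Epcam were higher and Krt15 was lower. Of 11 tested markers of limb mesenchyme 1 was higher and none lower, with sums of 744 FPKM in both. The part of these cells in the values of the guidance genes was not tested.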

How the data were processed

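Per the file headers, the authors deposited for 28092 rows 1 FPKM value per genotype, a q-value (an adjusted p-value) and a log2 fold change, Prmt5cKO over control. The sources used here state neither the test nor how replicates were combined. Cufflinks 2.1.1, TopHat2 2.0.10, Bowtie2 2.1.0 and the build mm10 are listed, without roles, per the submitters' processing notes. The deposited fold, written as a score because infinite folds appear as very large numbers, differed from the log2 ratio of the deposited FPKM values by at most 1.27e-05 over 10614 genes. Of all rows 4367 (15.5%) name no gene and were left out, as were rows of several genes. Repeated symbols kept the row with the highest mean, leaving 22653 genes; no member had more than 1 row. A fold of 0 with a q of 1 was read as untested.

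No value per sample was used, so no p-value, SD or standard error was computed, and every q is the authors' own; the limma fit planned for such values was not run. Whether the q measures the spread between embryos is unknown, and so is depth. Calls used a mean of at least 1 FPKM and a q under 0.05. List medians are of log2((Prmt5cKO FPKM + 1)/(control FPKM + 1)) minus the median of all genes, -0.12, and understate changes of low genes. The call and median steps were tested on simulated data. All members called were to be named, with the 3 most abundant genes of each family and the untested ones; further members were added for completeness. Members, gene lists and alternatives were chosen with earlier results of these data known. Coordinates are from GENCODE M21 (GRCm38, mm10), promoters from RefSeq GRCm38.p6. Strand use in counting is not given, so antisense transcripts such as Plxna4os1 cannot be told apart from their partners. Python 3.11.15, pandas 2.3.3 and NumPy 2.4.6 were used.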

Additional observations from a re-analysis of the deposited data

How the results depend on the processing

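Counts of guidance genes called higher were 2 of 42 tested at a q under 0.01 (3.22% of all tested genes) and 3 of 27 at a minimum mean of 5 FPKM (5.17% of all), against 6 of 42 as reported (4.83%). At these settings 8 and 10 were lower (13.6% and 20.6% of all). The count called lower was 4 with folds centred and at least 0.32 in size on the log2 scale (10.8% of all), against 12 (19.3%). At that setting 6 were higher (4.52% of all). At a q under 0.1, 7 of 42 were higher and 13 lower (5.98% and 23.7% of all). Without a minimum level 6 of 55 were higher and 13 lower (3.13% and 12.4% of all). Without X-linked genes, a choice added after seeing the data, 6 of 40 were higher and 11 lower (4.8% and 19.3% of autosomal genes). The median of all guidance genes, 0.01 relative to all genes, was -0.063 at a minimum of 5 FPKM. The Slit median, 0.30 as reported, was 0.051 without a minimum level, which brings in 2 scarce genes. The netrin median, -0.01 as reported, was 0.055 without a minimum, -0.14 at 5 FPKM and 0.11 without untested genes (the last chosen after seeing the data); it rests on 4 genes. The ephrin median stayed between -0.08 and -0.06 in 8 alternatives, and that of the semaphorin group between -0.03 and 0.04. No paired analysis was possible because the columns hold 1 value per genotype, and leaving out each replicate was not run for the same reason. With depth unknown, no limit of detection is given for genes listed at 0.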
